A study of Mus musculus with 2 samples.

Results

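The CXC and CX3C chemokine ligands of skin were followed here as 10 genes in 4 classes. These were the neutrophil ligands Cxcl1, Cxcl2 and Cxcl5, the interferon-induced ligands Cxcl9 and Cxcl10, the homeostatic ligands Cxcl12, Cxcl13 and Cxcl14, and the membrane-anchored ligands Cxcl16 and Cx3cl1. They were chosen by the gene symbol that the array's platform annotation gives each probe set, which found 16 of the 22690 probe sets and all 10 genes, of 12393 genes that could be named.

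RNA came from back skin of mice aged 10 days. The transgenic array held skin in which keratinocytes expressed an AhR that is constitutively active, under the sample title K14Ahr. AhR, the aryl hydrocarbon receptor, is a transcription factor that dioxins and other aromatic compounds normally switch on. The wild-type array held skin of littermates without the transgene. There was 1 array per genotype. The number of animals behind it, the strain and, beyond that title, the promoter of the transgene are not in the labels. There are therefore no replicates, no test and no p-value, and every value compares these 2 arrays only.

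Chemokines are small secreted proteins that bind G protein-coupled receptors on leukocytes and direct their migration. Cxcl1, Cxcl2 and Cxcl5 act through Cxcr2 and draw neutrophils, and are induced by interleukin-1, tumour necrosis factor and interleukin-17 through NF-kB. Cxcl9 and Cxcl10 act through Cxcr3 on activated T cells and natural killer cells and are induced by interferons. Cxcl12, Cxcl13 and Cxcl14 are made in unstimulated tissues, Cxcl14 largely by epithelia. Cxcl16 and Cx3cl1 are made as membrane proteins with a chemokine domain on a mucin stalk, and the proteases Adam10 and Adam17 release the soluble forms.

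The ligand classes differed in how many of their genes were read. By the probe set with the highest summed signal of each gene, the homeostatic and membrane-anchored ligands had signals above the floor of 34.7 on both arrays. The floor is the level below which signals were not ordered (the 40th percentile of all signals but those of controls). Other probe sets of Cxcl13 and Cxcl16 were below it on the wild-type array, and other probe sets of Cx3cl1 on both. Of the 5 neutrophil and interferon-induced ligands, 4 were under the floor on both arrays, and Cxcl5 passed it on the transgenic array only. Over the whole platform, 8894 of 12393 genes passed it on at least 1 array. With a floor at the 20th percentile all 10 ligands did so. Of the 6 measured ligands (those above the floor on at least 1 array), only Cxcl16 was at least 2-fold higher on the transgenic array, and no ligand was lower by that much. The same held for 2.27% (higher) and 1.09% (lower) of all 8894 measured genes. The call for Cxcl16 rests on the choice of probe set and floor: its log2 ratio of 1.30 became a bound of at least 0.98, which does not reach the limit of 1 but leaves it possible, as the mean over its probe sets and also when the floor was raised to the 60th percentile. In these settings 2.1% and 1.94% of measured genes were called higher, and no ligand. At a limit of 1.5-fold Cxcl12 joined Cxcl16, and 6.8% of measured genes were higher by that much. No ligand reached 3-fold, which 0.686% of measured genes did.

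**Figure D1:**
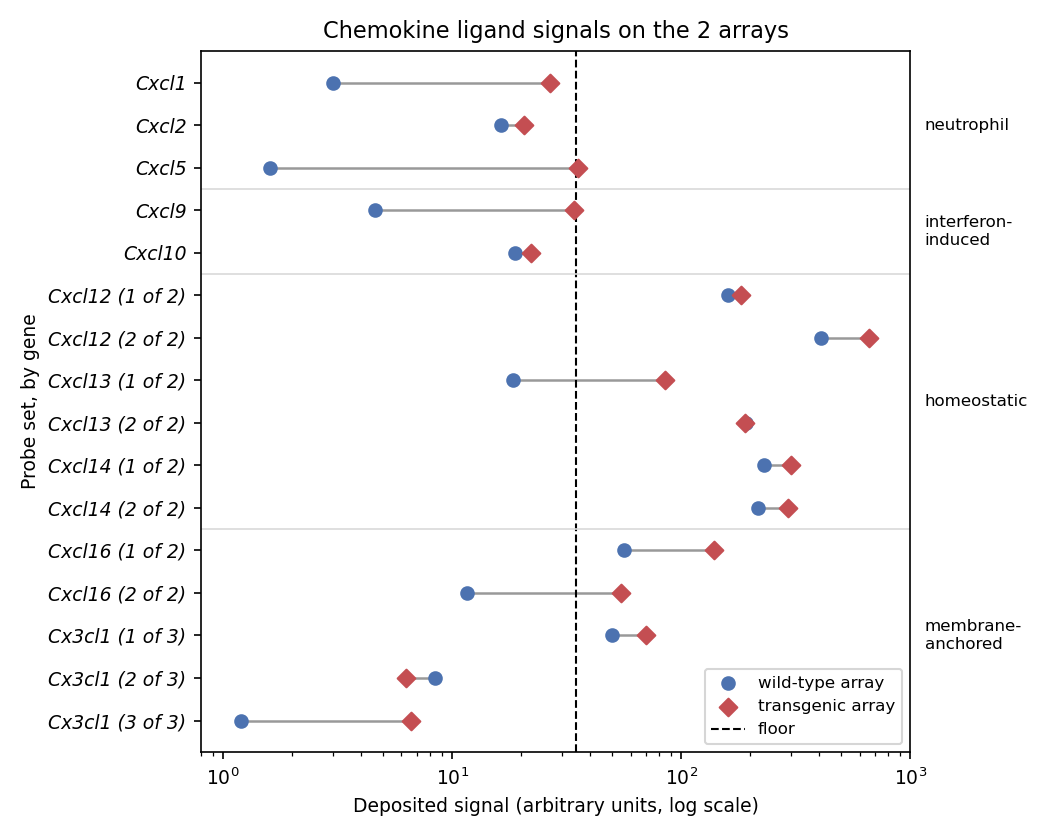
Deposited signal (log scale, arbitrary units) of the 16 probe sets of the 10 ligands, grouped by class, with wild-type (circles) and transgenic (diamonds) array joined by a line and the floor of 34.7 dashed. In 14 probe sets the transgenic signal is the higher, and 6 probe sets lie left of the floor on both arrays.

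Before any floor was applied, 14 of the 16 probe sets read higher on the transgenic array and 2 read lower. The count includes the 6 probe sets below the floor on both arrays, where signals were otherwise not ordered. Among all 22626 probe sets other than controls 45.5% read higher there. The 16 are not separate readings, since 5 genes have more than 1 probe set. The 2 that read lower on the transgenic array were a probe set of Cxcl13 and a probe set of Cx3cl1, with differences of 1.3 and 2.1 signal units.

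The neutrophil ligands read below the floor, where signals were not ordered in this setting, except Cxcl5 on the transgenic array. Cxcl1, made by keratinocytes and macrophages on injury, read 26.6 on the transgenic and 3.0 on the wild-type array. Cxcl5, a neutrophil ligand of epithelial cells, read 35.5 and 1.6. Cxcl2, the macrophage inflammatory protein 2 gene, read 20.5 and 16.3. Only the transgenic signal of Cxcl5 lay above the floor, by less than 1 unit, so that its difference could be given only as at least 1.02-fold.

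The interferon-induced ligands were not measured. Cxcl9, induced mainly by interferon gamma, read 33.9 on the transgenic and 4.6 on the wild-type array, both below the floor. Cxcl10, induced by type I interferons as well, read 22.0 and 18.7, also both below the floor.

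What can be said of these 5 genes depends on the floor. Lowered to the 20th percentile (11.9), it left Cxcl5 at least 2.98-fold higher on the transgenic array, Cxcl9 at least 2.85-fold and Cxcl1 at least 2.24-fold, each against a wild-type signal below that floor. The direction of Cxcl1, Cxcl5 and Cxcl9 was thus fixed by the flooring. Cxcl2 was 1.26-fold and Cxcl10 1.18-fold higher. That floor gave 10893 measured genes, of which 3.61% were called higher. With a pseudocount of 16 in place of a floor, the log2 ratios were 1.16 for Cxcl1, 1.55 for Cxcl5, 1.28 for Cxcl9, 0.18 for Cxcl2 and 0.13 for Cxcl10, and 1.92% of all 12393 genes were called higher. On this scale the pseudocount shrinks the ratios of low signals.

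Promoter sequences of the ligands were read from RefSeq (GRCm38.p6), 250 bases before to 50 bases after the gene start, for 8 of the 10 genes. Those of Cxcl1 and Cxcl10 are shown because they hold matches to motifs of NF-kB and interferon signalling, 1 from each of the classes with genes below the floor. Capitals mark matches, on either strand, to the NF-kB consensus, to the interferon-stimulated response element (ISRE) and to the AhR core (GCGTG). The Cxcl1 window is chr5:90890995-90891294 on the plus strand and the Cxcl10 window chr5:92348840-92349139 on the minus strand, each written 5′ to 3′ along the gene.
Cxcl1: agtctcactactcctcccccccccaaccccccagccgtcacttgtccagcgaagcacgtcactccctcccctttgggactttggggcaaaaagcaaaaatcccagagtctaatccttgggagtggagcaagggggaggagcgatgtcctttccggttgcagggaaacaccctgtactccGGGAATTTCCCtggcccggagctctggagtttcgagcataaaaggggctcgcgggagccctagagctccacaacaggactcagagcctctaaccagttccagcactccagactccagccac
Cxcl10: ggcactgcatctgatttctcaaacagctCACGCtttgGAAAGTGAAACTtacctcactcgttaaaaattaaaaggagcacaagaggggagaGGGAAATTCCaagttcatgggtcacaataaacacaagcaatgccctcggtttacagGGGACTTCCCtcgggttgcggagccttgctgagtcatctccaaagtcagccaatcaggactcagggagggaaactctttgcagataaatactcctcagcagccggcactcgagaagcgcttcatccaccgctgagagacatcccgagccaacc

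In Cxcl1 the NF-kB match GGGAATTTCC began 71 bases before the start and overlapped its own match on the other strand. Cxcl2 held the same letters 97 bases before the start. Cxcl10 held an NF-kB match 159 bases and another 103 bases before the start, and an ISRE 213 bases before it. The window of Cxcl9 held no match to any of the 3 motifs. Of all 32851 promoter windows in the table, 4.51% held the NF-kB consensus, 0.959% the ISRE and 32.4% the AhR core. No NF-kB match lay in the windows of Cxcl12, Cxcl13, Cxcl14 or Cx3cl1. A match describes letters and shows no binding.

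The homeostatic ligands were all measured on both arrays by the probe sets that stand for them, and by these none was called. For Cxcl13 this rests on the choice of probe set. Cxcl12, the ligand of Cxcr4 made by fibroblasts and endothelium, read 657.1 on the transgenic and 405.8 on the wild-type array (1.62-fold higher, log2 ratio 0.70) by the probe set with the higher summed signal, which stands for the gene. Its other probe set read 181.6 and 159.1, 1.14-fold higher. Both lay above equality, 0.50 apart on the log2 scale. Among 1764 pairs of probe sets that read the same gene above the floor on both arrays, 16% were at least that far apart, and the SD of such differences was 0.37.

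Cxcl14, a chemokine of resting epidermis, was read alike by its probe sets. They gave 301.6 on the transgenic against 230.2 on the wild-type array (1.31-fold higher) and 293 against 215.2 (1.36-fold higher). The log2 ratios, 0.39 and 0.45, differ by 0.06. Both are close to the SD of log2 ratios over all genes above the floor on both arrays, 0.42, and 12.0% of measured genes had a log2 ratio of 0.39 or more.

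The probe sets of Cxcl13, the B cell chemokine that acts through Cxcr5, disagreed. By the probe set that stands for the gene, signals were 190.1 on the transgenic and 191.4 on the wild-type array, a log2 ratio of -0.01. By the other they were 84.7 and 18.4, at least 2.44-fold higher on the transgenic array. The gap between them is at least 1.30 on the log2 scale, and of the pairs above 0.510% were at least 1.30 apart, although those pairs were above the floor on both arrays and this one was not. As the mean of the 2 probe sets the log2 ratio was at least 0.64, and by the other probe set alone Cxcl13 would join Cxcl16 past 2-fold. No direction is given for Cxcl13.

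The promoters of Cxcl13 and Cxcl14 are shown because, among the homeostatic ligands, these held the AhR core, the letters that AhR binds. That core lay in 32.4% of all windows, and whether AhR acts on these genes was not tested. Capitals mark the same motifs as before. The windows are chr5:95956689-95956988 on the plus strand for Cxcl13 and chr13:56296502-56296801 on the minus strand for Cxcl14.
Cxcl13: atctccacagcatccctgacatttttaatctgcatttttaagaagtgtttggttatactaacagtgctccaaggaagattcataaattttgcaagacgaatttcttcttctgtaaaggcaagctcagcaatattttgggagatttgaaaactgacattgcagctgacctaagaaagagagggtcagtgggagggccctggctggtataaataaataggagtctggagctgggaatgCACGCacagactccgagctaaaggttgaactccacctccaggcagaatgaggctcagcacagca
Cxcl14: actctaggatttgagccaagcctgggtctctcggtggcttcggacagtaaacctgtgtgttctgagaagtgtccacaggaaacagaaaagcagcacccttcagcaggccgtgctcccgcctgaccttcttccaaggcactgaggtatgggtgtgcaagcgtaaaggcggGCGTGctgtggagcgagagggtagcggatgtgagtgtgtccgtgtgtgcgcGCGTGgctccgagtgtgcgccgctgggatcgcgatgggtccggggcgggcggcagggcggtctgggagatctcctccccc

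Cxcl13 held 1 AhR core, 14 bases before the start, and Cxcl14 held 2, 81 and 30 bases before the start. Among the other windows Cxcl2 held 2 AhR cores and Cxcl10 held 1, while Cxcl1, Cxcl9, Cxcl12 and Cx3cl1 held none. The windows also differed in base composition. Those of Cxcl12, Cxcl14 and Cx3cl1 held 20, 22 and 19 CpG dinucleotides, against 10 in Cxcl1, 11 in Cxcl2, 10 in Cxcl10, 4 in Cxcl9 and 3 in Cxcl13, with a median of 7 over all windows.

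Of the membrane-anchored ligands, Cxcl16 was called higher and Cx3cl1 was not. Cxcl16, the ligand of Cxcr6 and a scavenger receptor for oxidised lipoprotein, read 139 on the transgenic against 56.3 on the wild-type array, 2.47-fold higher. Its other probe set, whose name carries a suffix for possible binding of related transcripts, read 54.8 and 11.6, at least 1.58-fold higher. The second probe set was above the floor on the transgenic array only, so its direction after flooring was fixed. The log2 ratio of 1.30 placed Cxcl16 at rank 105 of 8894 measured genes, and it ran from 1.30 to 1.38 over the scalings tried.

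Cx3cl1, or fractalkine, the only CX3C chemokine, read 70 on the transgenic and 49.6 on the wild-type array, 1.41-fold higher (log2 ratio 0.50). Its other probe sets were below the floor on both arrays, at 6.3 and 8.4 by the second and at 6.6 and 1.2 by the third. A log2 ratio of 0.50 or more was found in 8.59% of measured genes. With the higher floor, 70.7, this gene was not measured.

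**Figure D2:**
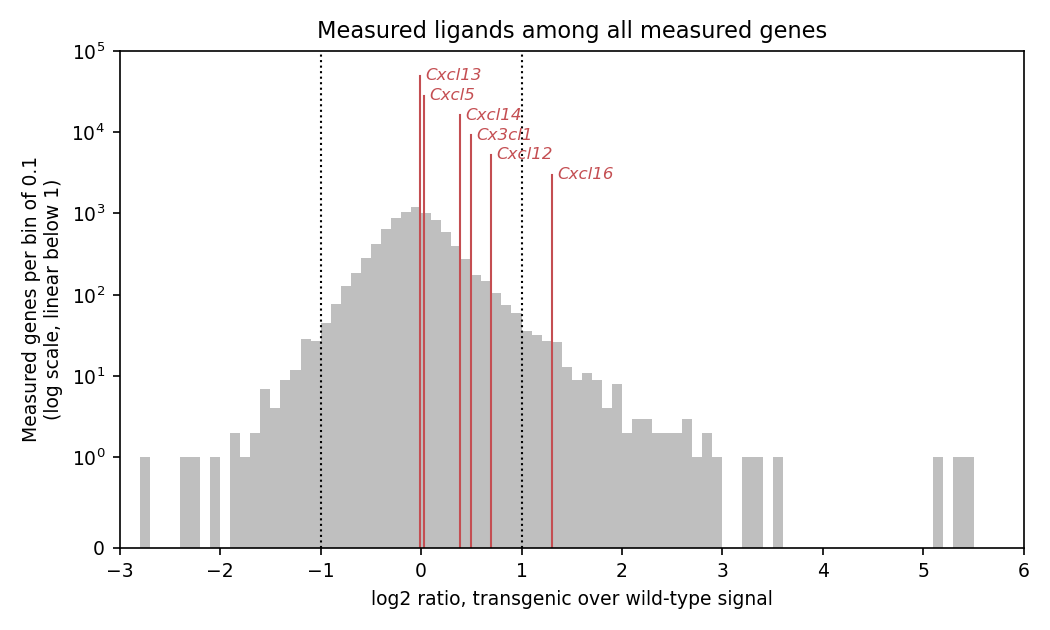
Histogram of log2 ratios (transgenic over wild type) for 8894 measured genes in bins of 0.1 (vertical axis logarithmic above 1), with red stems at the 6 measured ligands and dotted lines at 2-fold. Only Cxcl16 lies beyond a dotted line, and Cxcl13 and Cxcl5 lie near 0. The value of Cxcl5 is a lower bound set by the floor, and the other probe set of Cxcl13 gave at least 1.29.

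By class, the median log2 ratio was 0.39 for the homeostatic ligands, from -0.01 to 0.70, and 0.90 for the membrane-anchored pair, from 0.50 to 1.30. With the other probe set of Cxcl13 the homeostatic values ran from 0.39 to at least 1.29, with a median of 0.70. The median over all measured genes was -0.05. The neutrophil class had only Cxcl5 measured (a bound of at least 0.03), and the interferon-induced class had no measured gene, so these classes cannot be set against the others with this floor. With the lower floor, where all 10 ligands were measured, the median of the neutrophil class was at least 1.16 and that of the interferon-induced class at least 0.87. Both medians rest on Cxcl1, Cxcl5 and Cxcl9, which passed that floor on the transgenic array only and so had to read higher. The homeostatic and membrane-anchored medians stayed at 0.39 and 0.90.

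**Figure D3:**
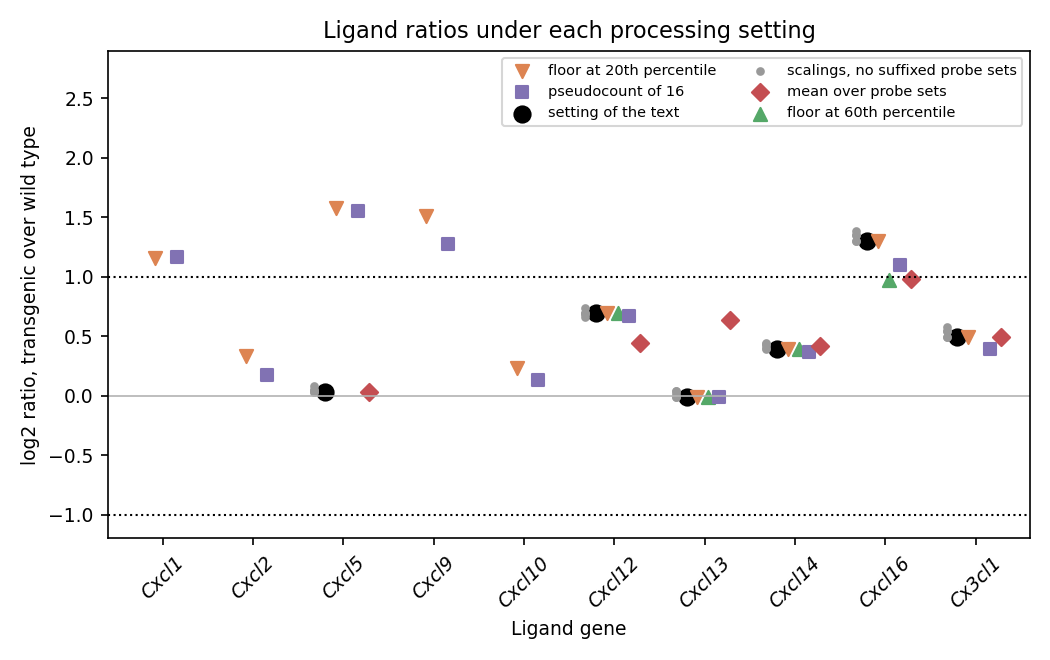
log2 ratio (transgenic over wild type) of each ligand under the processing settings tried, with dotted lines at 2-fold; with a floor, the values of Cxcl1, Cxcl5 and Cxcl9 are lower bounds, as are those of Cxcl16 with the higher floor and of Cxcl13 and Cxcl16 as means over probe sets. Cxcl1, Cxcl5 and Cxcl9 lie above the upper line only with the lower floor or the pseudocount, and the bounds of Cxcl16 lie at 0.98.

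Of the CXC ligands outside the 10, Pf4 (Cxcl4), a platelet chemokine that macrophages also express, read 311.2 on the transgenic and 116.7 on the wild-type array, 2.67-fold higher. Cxcl17, a mucosal chemokine, read 103.4 and 92.6. Cxcl11, Cxcl15 and Ppbp were below the floor on both arrays, and Cxcl3 was not analysed here. Cxcl11 shares receptor and induction with Cxcl9 and Cxcl10, and its probe sets read 17.3 and 10.5 on the transgenic against 3.9 and 11.0 on the wild-type array.

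None of the receptors of these ligands was called. Of 10 receptors analysed 5 were measured, none differed by 2-fold, and the median log2 ratio was -0.02. Cxcr3, the receptor of Cxcl9 and Cxcl10, read 53.7 on the transgenic and 54.3 on the wild-type array, and Cxcr4, the receptor of Cxcl12, read 35.4 and 40.7. Cxcr6, the receptor of Cxcl16, read 32.6 (below the floor) and 41.2. The decoy receptor of Cxcl12, Ackr3, read 93.9 and 84.3. Ackr1, which binds inflammatory chemokines on venules and red cells, was the highest at 137.3 and 87.8 (log2 ratio 0.65). Cxcr2, Cxcr5, Cx3cr1, Ackr2 and Ackr4 were below the floor on both arrays, and Cxcr1 was not analysed here. Neither Cxcr2 nor Cx3cr1, the receptors of the neutrophil ligands and of Cx3cl1, was thus measured.

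Of the 8 proteases listed for release or trimming of chemokines 6 were measured, none was at least 2-fold higher and Dpp4 was at least 2-fold lower. The shares over all measured genes were 2.27% (higher) and 1.09% (lower). Dpp4, a surface peptidase that clips and inactivates Cxcl9, Cxcl10 and Cxcl12, read 34.3 on the transgenic and 114 on the wild-type array, at least 3.29-fold lower, and its other probe set was below the floor on both arrays. Adam10 read 332.1 and 293.7 and Adam17 161 and 129.3, log2 ratios of 0.18 and 0.32. The matrix metalloproteases Mmp2, Mmp9 and Mmp14 had log2 ratios of 0.52, 0.63 and 0.20. Mmp12 and Ctsg were below the floor on both arrays.

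The cytokines that induce neutrophil ligands were mostly unread. Of 8 analysed 3 were measured and none was called, with Il1b at 93.6 on the transgenic and 61.4 on the wild-type array and bounds of at least 0.51 for Il1a and 0.37 for Il17a on the log2 scale. Tnf, Il6, Csf2, Csf3 and Lif were below the floor on both arrays. All 6 measured NF-kB target genes lay above 0, where 43.6% of measured genes lay, and none reached 2-fold, although 2 did with lowess centring. Of these 6, 2 were above the floor on the transgenic array only and had to read higher. Nfkb2 was at least 0.96 and Icam1, an adhesion molecule for leukocytes, 0.94, and the lowest were Nfkbia, the inhibitor of NF-kB, at 0.36 and Bcl3 at least 0.32. The other probe set of Nfkb2, with a cross-hybridisation suffix, read 42.1 and 54.5.

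Of 12 measured genes of the interferon gamma response 9 lay above 0 and 1 was at least 2-fold higher, Psmb8, an immunoproteasome subunit (at least 2.70-fold), or 2 with lowess centring. Over all measured genes 43.6% lay above 0 and 2.27% were at least 2-fold higher. Of the 9, Psmb8, Gbp2 and Irf8 were above the floor on the transgenic array only and had to read higher. Icam1, which this list shares with the NF-kB targets, was next, and Socs1 (-0.26) and Igtp (-0.13) were lowest. Ifng itself was below the floor, at 5.7 on the transgenic and 9.6 on the wild-type array. In the type I interferon response none of 8 measured genes was called, from Oas2 (at least 0.75) and Oas1a (0.31) down to Oasl1 (-0.23) and Oas3 (-0.37), with a median of 0.14.

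**Figure D4:**
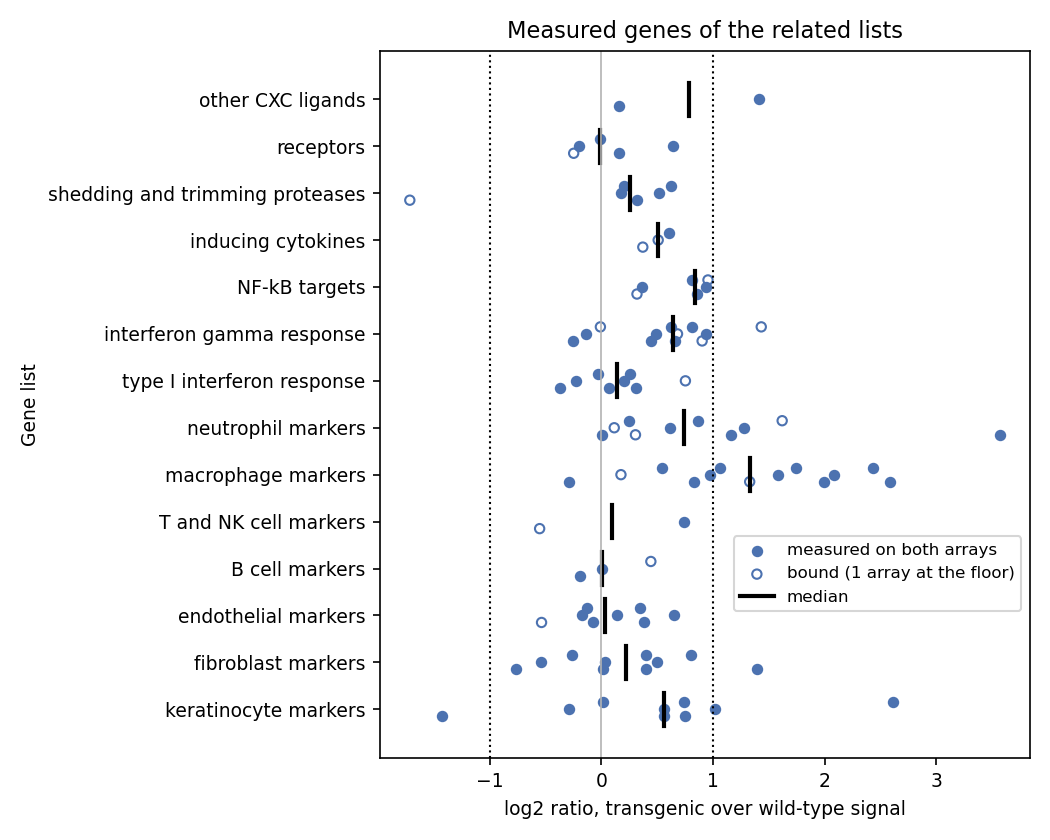
log2 ratio (transgenic over wild type) of the measured genes of 14 related lists (filled, above the floor on both arrays; open, bounds), with medians as black bars and dotted lines at 2-fold. Among the lists plotted, which leave out melanocyte markers and AhR targets, the macrophage list has the highest median, 1.33, and the receptor list has a median of -0.02.

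Some macrophage and neutrophil markers also differed between the arrays, and in whole skin more cells of a type and more RNA per cell cannot be told apart. Of 13 measured macrophage markers 8 were at least 2-fold higher (9 with lowess centring), against 2.27% of all measured genes. The 13 had summed signals of 2820 on the transgenic and 990 on the wild-type array. Of the 8, Cd163 was above the floor on the transgenic array only, and the other probe sets of Csf1r gave log2 ratios of 0.66 and 0.45. C1qa (2.59) and Mrc1 (2.43) had the highest log2 ratios and Fcgr1 (at least 0.18) and Msr1 (-0.29) the lowest. Macrophages express Cxcl16 and Pf4, and the part of this list in their values was not tested. Of 10 measured neutrophil markers 4 were at least 2-fold higher, also against 2.27% of all measured genes. The 10 had summed signals of 2013 and 749, or 672 and 324 without S100a8 and S100a9 (signals below the floor included). The 4 called were S100a9 (3.57) and S100a8 (1.16), which stressed keratinocytes also express, Lcn2 (at least 1.62) and Ngp (1.28), while Csf3r was at least 0.12 and Mpo 0.01. The sums without S100a8 and S100a9 still held Lcn2, at 106.7 on the transgenic and 7.6 on the wild-type array. Elane, Prtn3, Ctsg and Cxcr2 were below the floor on both arrays. Whether neutrophils bear on the signals of Cxcl1 and Cxcl5 was not tested.

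Most genes of the lymphocyte lists were not measured. Only Zap70 (0.74) and Nkg7 (at most -0.55) of 11 T and natural killer cell markers were measured, and Cd3d, Cd3e, Cd3g, Cd4, Cd8a and Cd8b1 were below the floor on both arrays. Zap70 rests on 1 probe set, at 444.7 on the transgenic and 266.8 on the wild-type array. Its other probe set read 4.8 and 9.5, below the floor on both. Of 7 B cell markers analysed 3 were measured, with Ms4a1 at least 0.44, Ighm 0.01 and Blk -0.19. Ighm read 109.8 on the transgenic and 109.4 on the wild-type array. Cd79a, Cd79b, Cr2 and Pax5 were below the floor on both arrays.

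Among the resident cells of skin, the 8 measured endothelial markers had a median log2 ratio of 0.04 and none was called, with Kdr (0.65) and Cdh5 (0.38) highest and Flt1 (-0.17) and Tek (at most -0.54) lowest. The 10 fibroblast markers had a median of 0.22, with Pdgfra (1.40) and Thy1 (0.80) highest and Col1a1 (-0.54) and Fap (-0.77) lowest. Only Pdgfra was called, where 2.27% of all measured genes were called higher. By their other probe sets Col1a1 was higher on the transgenic array (0.41) and Pdgfra was at least 0.18, so both results depend on the probe set. The 9 keratinocyte markers were all measured, as the tissue label implies, with summed signals of 15287 and 9712 and a median of 0.56. Krt1 (2.61) and Itgb4 (1.02) were the highest and Trp63 (-0.29) and Krt15 (-1.43) the lowest. Of 7 measured melanocyte markers all lay below 0 (1 lay above 0 with quantile normalization or lowess centring) and 3 were lower by 2-fold or more (2 with median centring). Their median log2 ratio was -0.88, and 1.09% of all measured genes were lower by 2-fold or more. The highest were Sox10 (-0.05) and Kit (-0.46) and the lowest Tyr (-1.31) and Tyrp1 (-1.15). All 5 measured AhR targets were at least 2-fold higher, against 2.27% of all measured genes. Cyp1a1 read 1802 on the transgenic and 40.8 on the wild-type array (log2 ratio 5.46), and Cyp1b1 had a log2 ratio of 1.98, Nqo1 of at least 1.27 and Tiparp of 1.14. Ahrr was below the floor on both arrays.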

How the data were processed

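Biotin-labelled total RNA of back skin was hybridised to 1-colour arrays, per the labels. The authors deposited a linear intensity for each probe set. Its 2% trimmed mean was 100.03 on both arrays, so the arrays had been scaled. No source used here names the software. Median signals were 49.1 (transgenic) and 50.7 (wild type).

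Of 22690 probe sets 64 were controls, 20380 had 1 gene in the platform annotation, 691 several and 1555 none. Symbols were updated by gene identifier to GRCm38.p6. Signals were scaled to equal trimmed means, raised to the floor (34.7) and put on the log2 scale. Above the floor lay 59.7% and 60.2% of probe sets. The probe set with the highest sum of both signals stood for its gene, which was called at a 2-fold difference. A ratio with 1 array at the floor is a bound. The number of arrays limits the precision.

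The ligands and lists were chosen with earlier results of these data known. Named were all 10 ligands, the receptors and the proteases and the 2 highest and 2 lowest genes of each other list, with defining markers below the floor. The motifs (on both strands, each by its usual consensus) were chosen after the signals were seen. The calculation, in Python 3.11.15 with pandas 2.3.3 and statsmodels 0.14.6, was tested on simulated data. Effects were planted there only in genes with a mean signal well above the floor, so genes near the floor were not covered.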

Additional observations from a re-analysis of the deposited data

How the results depend on the processing

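The count of ligands at least 2-fold higher, 1 in the text, was 4 with the floor at the 20th percentile or a pseudocount of 16 (Cxcl1, Cxcl5, Cxcl9 and Cxcl16 in each), 2 with a limit of 1.5-fold (Cxcl12 and Cxcl16), 2 with the other probe set of Cxcl13 (an alternative chosen after seeing the data; Cxcl13 and Cxcl16), and 0 with a 60th percentile floor, the mean over probe sets or a limit of 3-fold. It was 1 with the values as deposited, median centring, quantile normalization, lowess centring (span 0.4) and without suffixed probe sets. No ligand was at least 2-fold lower in any of the 11 alternatives. The neutrophil median of 0.03 became 1.16 with the lower floor and 1.16 with the pseudocount, where Cxcl1 and Cxcl2 entered as well. The interferon-induced class, with no measured gene in the text, gave 0.87 and 0.70 in those 2 settings. Cxcl1, Cxcl5 and Cxcl9 passed the lower floor on the transgenic array only and had to read higher there. With bounds taken at their value, homeostatic and membrane-anchored medians moved by less than 0.37 in all 9 alternatives that gave them. That is the SD of the difference between probe sets of 1 gene. For the membrane-anchored class the higher floor left Cxcl16 alone, at least 0.98, and the mean over probe sets gave at least 0.74. How far these bounds moved is not known. The homeostatic median of 0.39 was 0.70 with the other probe set of Cxcl13. Cxcl13 itself, -0.01 in the text, was at least 0.64 as a mean and at least 1.29 by that probe set. Over all genes, 202 higher and 97 lower became 393 and 257 with the lower floor, 123 and 45 with the higher floor, 605 and 567 at 1.5-fold and 61 and 9 at 3-fold. No paired analysis was possible because each genotype has 1 array. Signal over background limits the neutrophil and interferon-induced ligands, and no detection calls were used here.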
